A study of Drosophila melanogaster with 18 samples.

Results

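The comparison described here follows control flies of Drosophila melanogaster across pupariation, from the last, motionless larvae to prepupae in the first hour after the white puparium formed. It rests on 6 of the 18 samples of the series, chosen by their labels: 3 of stationary larvae and 3 of white prepupae, all whole animals of the white-eyed laboratory strain w1118. No treatment or transgene is labelled for them. Larvae fed on food with 0.05% bromophenol blue, and stationary larvae were taken with clear or pale blue guts, which shows that feeding had ended. The other groups used below are 3 samples of w1118 wandering larvae, third-instar animals whose guts were still blue, and 6 samples of Nxt1 trans-heterozygotes, stationary larvae and white prepupae that carry the alleles DG05102 and Z2-0488 in a strain labelled yw. Nxt1 is a subunit of the mRNA export receptor. The trans-heterozygotes thus differ from w1118 in strain as well as at Nxt1, and the number of animals per sample is not given in the sources used here.

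Libraries from 0.5 µg of total RNA were sequenced as 100-base pairs. The authors' deposited tables hold 1 FPKM value per group, a level corrected for transcript length and for the number of fragments sequenced, which they pooled over the 3 samples, so the spread between samples and the depth of each sample are unknown. Of 14542 gene entries, 11237 had at least 1 FPKM at either stage and no failed estimate, and these are the entries counted. The stage change of an entry is the log2 of its (FPKM + 1) in prepupae over that in stationary larvae, less -0.04, the median over the 10601 entries with at least 1 FPKM at both stages, because the authors scaled each stage separately. It is called the log2 change below, and "rose" and "fell" are used of changes of at least 2-fold, a log2 change of 1. The number after ± is an upper bound of the standard error of a log2 change, derived from the authors' test statistics, and its median over the 10301 counted entries that have one was 0.45. The stage change itself was given no test, since the pooled values hold no replicates. In extracts of whole animals, fewer cells of a type and less RNA per cell cannot be told apart.

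As background, a late larval pulse of the steroid 20-hydroxyecdysone ends larval life. The hormone binds a receptor made of EcR and usp, which switches on a small set of early transcription factors, and these in turn drive late genes in each tissue. Salivary glands expel a protein glue that fixes the animal to its support, the larval cuticle is retracted and tanned into the puparium, imaginal discs evert, and the larval midgut and muscles start to be dismantled. A mid-prepupal factor, ftz-f1, follows once the hormone has declined.

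Most of the transcriptome changed little over this step. Of the counted entries 9333, or 83.1%, lay within 0.5 of a log2 change of 0. In all, 282 entries (2.51%) were at least 2-fold higher in prepupae and 464 (4.13%) at least 2-fold lower. These shares are the general rates beside which the list counts below stand. At 4-fold the counts were 90 entries higher (0.801%) and 149 lower (1.33%), so falls outnumbered rises at either threshold. Leaving out changes smaller than 2 error bounds, and entries without a bound, kept 37 of the 4-fold rises and 86 of the 4-fold falls. Small RNA entries made up 15 of the 4-fold rises and 14 of the 4-fold falls. These are snoRNAs, scaRNAs and miRNAs, and 27 of these 29 entries were listed at 0 at one of the stages. The entry furthest out was mir-7, listed at 0 in stationary larvae and at 630 FPKM in prepupae. These entries are given no fold and are left out of the rankings below.

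**Figure D1:**
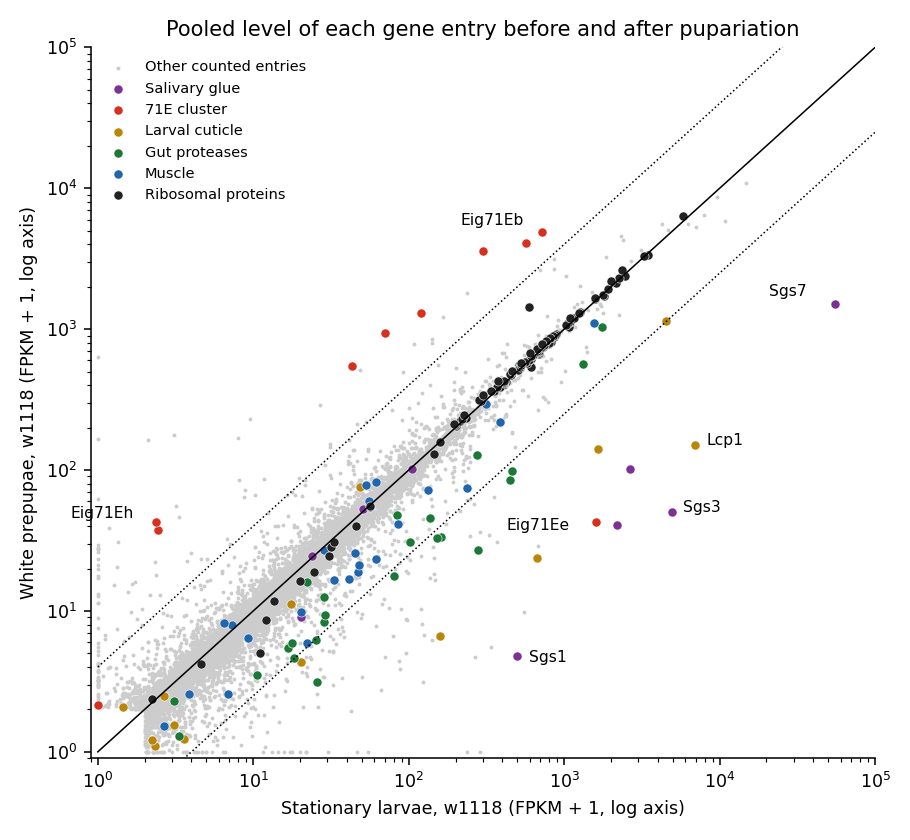
Pooled w1118 level of each counted gene entry in stationary larvae (horizontal) and white prepupae (vertical), as FPKM + 1 on log axes, each point 1 entry and colours marking 6 gene lists. The solid line marks equal levels and the dotted lines a 4-fold ratio before centring. The Sgs glue genes and Lcp1 lie far below the lines, most 71E genes far above, and ribosomal protein genes along the diagonal.

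Sgs1 and Sgs3, genes of the salivary glue, had the largest falls outside the small RNAs. Sgs7, which encodes a small glue protein, had 106346 FPKM in wandering larvae, 55228 FPKM at the stationary stage and 1508 FPKM in prepupae. It was the most abundant entry of stationary larvae, 8.24% of all FPKM, and 0.251% in prepupae, a log2 change of -5.15 ± 0.32. Sgs3, a mucin-like glue protein, had 17948, 4905 and 49.5 FPKM at the 3 stages (log2 change -6.56 ± 0.36). The other large glue mucin, Sgs1, was at 1249, 495 and 3.78 FPKM and had the largest fall of any named gene, -6.66 ± 0.42. Sgs5 dropped from 2188 to 39.7 FPKM (-5.71 ± 0.33) and Sgs8 from 2630 to 101 FPKM (-4.65 ± 0.37). Sgs4 read 660.2 and 9.57 FPKM, but its estimate is marked as failed in both tables and it is not counted. Together the 6 Sgs genes made up 18.3% of all FPKM at the wandering stage, 9.87% at the stationary stage and 0.285% after pupariation. These shares include Sgs4 despite its failed estimate.

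The glue list holds 15 entries, of which 6 have a failed estimate and are not counted, among them Sgs4 and ng3 (70.8 and 1.05 FPKM). Of the 9 counted entries 6 fell and none rose, with a median log2 change of -4.65, against -0.01 over all counted entries. The sixth was sage, a salivary gland transcription factor, at 19.3 and 8.11 FPKM (-1.12 ± 0.67). Its partner fkh, which is needed for glue transcription and is also made in other tissues, was level at 49.7 and 51.6 FPKM (0.09 ± 0.25). Sgs3, Sgs7 and Sgs8 adjoin each other on arm 3L (11502067 to 11506503). On arm 3R, CG7587 lies next to Sgs5 and went with it from 122 to 2.12 FPKM (-5.25 ± 0.96). The mucins Muc96D and Muc26B fell too. Muc96D was at 265 FPKM before and 3.69 FPKM after (-5.79 ± 0.52), Muc26B at 681 and 28.0 FPKM (-4.51 ± 0.28). The adjacent CG31698 and CG15404 on arm 2L were at 337 and 548 FPKM in stationary larvae and at 4.55 and 8.82 FPKM in prepupae, the largest falls among genes without a name beside CG7587 (-5.89 ± 0.80 and -5.76 ± 0.80).

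**Figure D2:**
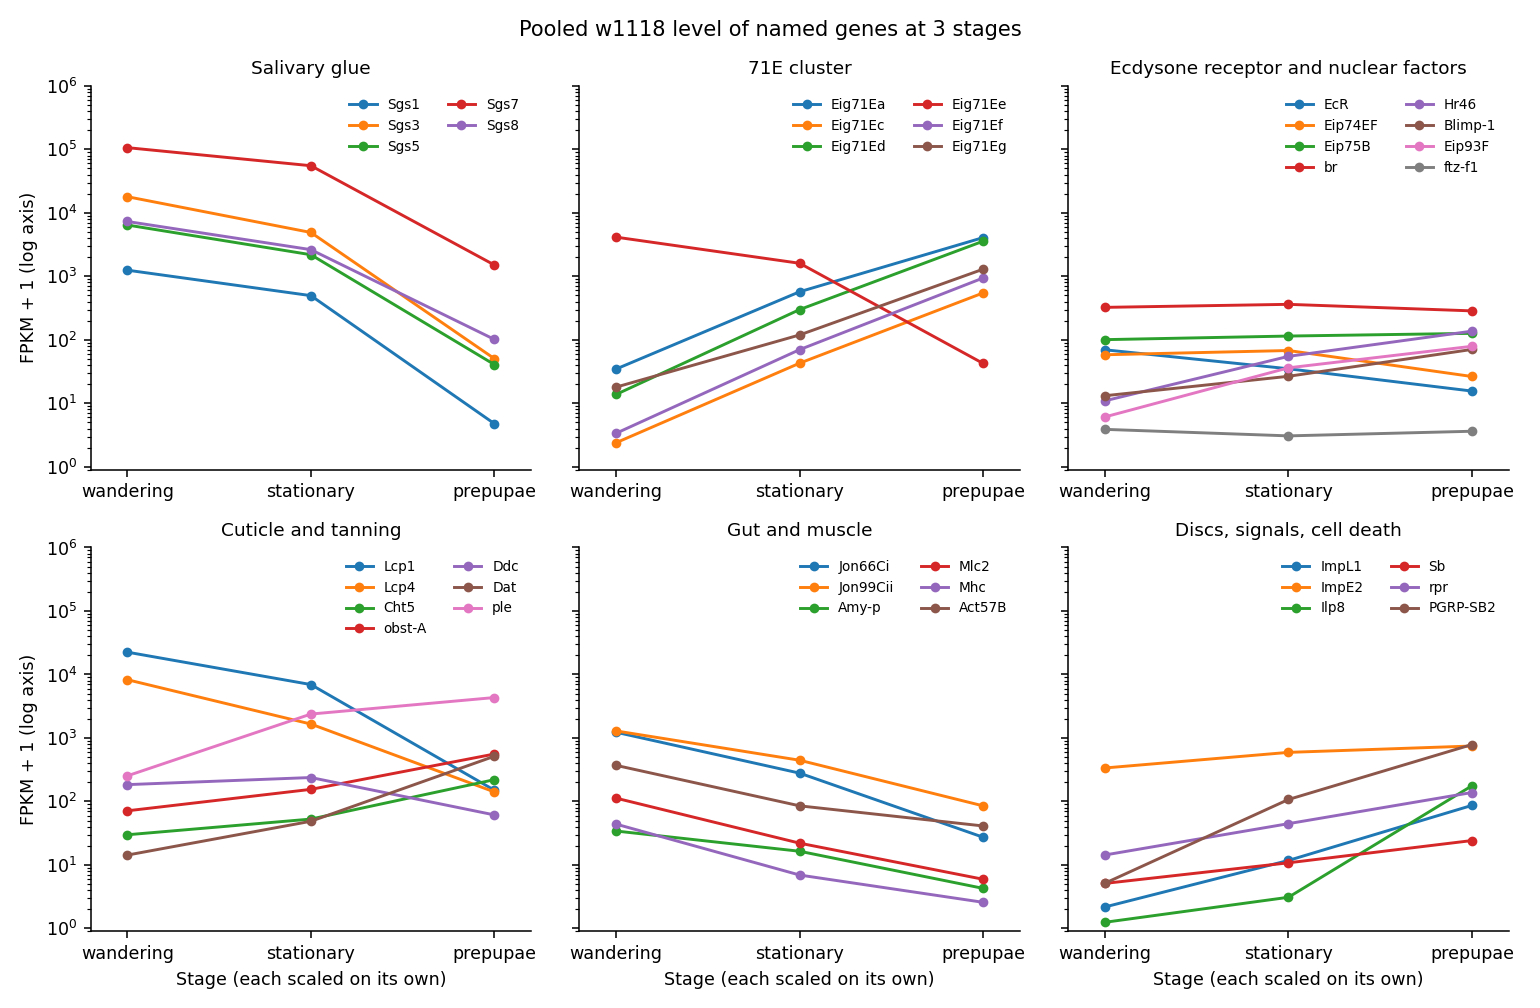
Pooled w1118 FPKM + 1 (log axis) of named genes in wandering larvae, stationary larvae and white prepupae, 1 line per gene. The stages were scaled separately by the authors, and no error can be drawn. Glue genes drop most between the last 2 stages, while the 71E genes climb from wandering larvae on, except Eig71Ee.

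In 1 gene cluster the counted members rose with 1 exception. The 71E genes on arm 3L (15642226 to 15654909) are late ecdysone targets of the salivary gland that encode small secreted proteins. Of 10 counted members 9 rose, 8 of them by more than 4-fold, and 1 fell, with a median log2 change of 3.55. Over all counted entries 2.51% rose. Eig71Ej, 1 of the 9 that rose, was under 1 FPKM in stationary larvae and was counted only through its prepupal level. Eig71Eb was at 22.4, 723 and 4853 FPKM in wandering larvae, stationary larvae and prepupae (log2 change 2.79 ± 0.27), which made it the tenth most abundant entry of prepupae. Eig71Ea had 33.7, 571 and 4076 FPKM (2.88 ± 0.25), and Eig71Ed 12.8, 299 and 3574 FPKM (3.62 ± 0.29). These 3 genes had thus already left their wandering level in stationary larvae.

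Lower members of the cluster changed as much. Eig71Eg went from 118 to 1295 FPKM (3.48 ± 0.39), Eig71Ef from 69.1 to 941 FPKM (3.79 ± 0.44) and Eig71Ec from 41.9 to 547 FPKM (3.72 ± 0.36). Eig71Eh and Eig71Ei, listed at 0 in wandering larvae, reached 41.9 and 36.5 FPKM from 1.37 and 1.44 FPKM. At the far end Eig71Ej was listed at 0 and then at 1.17 FPKM, and Eig71Ek stayed under 1 FPKM, at 0.405 and 0.492. The exception was Eig71Ee, also known as a glue gene, in the middle of the cluster. It fell from 4139 through 1604 to 41.5 FPKM, a log2 change of -5.20 ± 0.31 that was in the range of the Sgs genes.

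Unnamed genes within and beside the cluster did not all follow them. CG43082, just beyond Eig71Ek, went from 1.34 to 21.1 FPKM with a large bound (3.28 ± 2.83). CG43083, just before Eig71Ea, was lower in prepupae, at 36.9 and 19.9 FPKM (-0.82 ± 0.65), and CG43084, between Eig71Eb and Eig71Ec, was at 8.31 and 3.26 FPKM (-1.09 ± 1.22). Genes that rose and genes that were lower in prepupae were thus interleaved in the region.

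**Figure D3:**
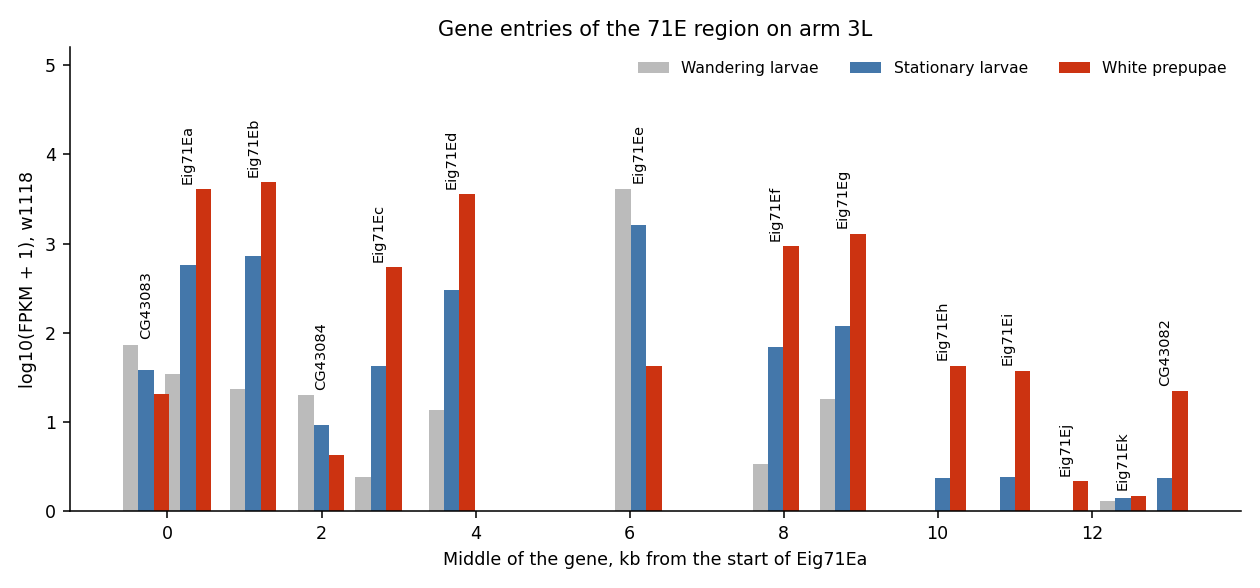
Level of each gene entry of the 71E region of arm 3L, as log10(FPKM + 1) in w1118 wandering larvae (grey), stationary larvae (blue) and white prepupae (red), against the distance of the gene's middle from the start of Eig71Ea in kb. Bars start at 0 and carry no error. For Eig71Ee, CG43083 and CG43084 the red bar is the lowest of the 3 stages, and for every other entry shown it is the highest.

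Clustering of genes that moved together was not limited to 71E. Small RNAs and entries that share a locus were left out here. Of 51 entries at least 4-fold higher, 19 (37.3%) had another such entry within 10 kb, as did 63 of the 6526 other entries (0.965%). The 71E run itself made up 9 of the 19, and without it 10 of 42 entries (23.8%) had such a neighbour. The share among the other entries was not recounted without the 71E run. For falls the numbers were 53 of 95 (55.8%) and, among the other entries, 177 of 6482 (2.73%). These falls include the 2 entries of Lcp65Ab2 with identical values, which count as neighbours of each other. Several runs are members of the same gene family, such as Jon66Ci and Jon66Cii. On arm 3L, CG42717 went from 234 to 1815 FPKM (2.99 ± 0.32) beside CG42716 and CG42538, which were listed at 0 in stationary larvae and at 11.7 and 16.2 FPKM in prepupae. PGRP-SB2, a secreted peptidoglycan recognition protein, was at 4.15, 106 and 785 FPKM over the 3 stages (2.91 ± 0.29) and its neighbours CG13026 and CG13031 reached 8.89 and 16.9 FPKM from 0.635 and 1.38 FPKM. The X-linked pair CG32762 and CG4151 reached 1213 and 849.8 FPKM from 164 and 139 FPKM (2.92 ± 0.26 and 2.64 ± 0.27). Among the falls the longest named run was Lcp1 to Lcp4 on arm 2R (4317801 to 4326000).

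Genes of the ecdysone receptor and its early targets changed little as a group. Of 24 counted members 3 rose and 3 fell, with a median log2 change of -0.08. EcR itself went from 68.6 FPKM in wandering larvae to 34.0 and 14.6 FPKM, a log2 change of -1.13 ± 0.35 over the last step. Its largest start-site group carried the fall, at 29.5 and 10.7 FPKM, while a second group was level at 3.84 and 3.86 FPKM. The entry for usp, the receptor partner, is merged with the muscle gene Actn and stood at 61.0 and 80.9 FPKM (0.44 ± 0.31). Of the early genes, Eip74EF, an ETS factor, fell, with 66.8 and 25.4 FPKM (-1.32 ± 0.28), and br, the zinc-finger factor of the broad complex, stood at 361 and 285 FPKM (-0.30 ± 0.41). Eip78C, a nuclear receptor, was at 69.0 and 36.2 FPKM, short of 2-fold (-0.87 ± 0.25).

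Eip75B, a nuclear receptor with alternative promoters, was level as a gene, at 114 and 125 FPKM (0.18 ± 0.30), but its start-site groups moved apart. One group went from 21.6 to 64.3 FPKM (1.57 ± 0.58), from 19.0% to 51.2% of the gene. Another dropped from 43.3 to 20.8 FPKM (-0.98 ± 0.58), from 38.1% to 16.6%. No other gene of the list with start-site groups of at least 5 FPKM had groups that moved so far in opposite directions. The start-site groups are named by number in the deposited tables, and which Eip75B isoform each makes is not stated there.

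Of the transcription factors in the list 3 rose. The entry that merges Hr46, the nuclear receptor also called DHR3, with CG12912 was at 9.95, 53.9 and 136 FPKM over the 3 stages (1.36 ± 0.39). Blimp-1, a repressor that sets the timing of ftz-f1, went from 25.6 to 69.5 FPKM (1.45 ± 0.27). Eip93F, a factor of metamorphic cell death, went from 5.11 through 35.2 to 78.1 FPKM (1.17 ± 0.26). Each of these 3 was higher at every later stage, and ftz-f1 itself remained low, at 2.89, 2.07 and 2.63 FPKM. Several others were within their error bounds of 0, such as Hr4 at 50.8 and 43.4 FPKM (-0.18 ± 0.27), Hr39 at 43.0 and 40.0 FPKM (-0.06 ± 0.29) and Kr-h1 at 37.3 and 31.4 FPKM (-0.20 ± 0.27). The let-7 complex entry, a small RNA entry counted among the falls of this list, went from 29.8 to 4.21 FPKM with an error bound of 9.22. Its drop lay in the mir-125 start-site group, listed at 25.9 and then 0 FPKM and marked as low data. The let-7-C group was level at 3.92 and 4.21 FPKM (0.12 ± 0.69).

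The counted enzymes that make ecdysone in the prothoracic gland all changed by less than 2-fold. Of 12 counted members of the synthesis list 1 fell, none rose, and the median was -0.03. The list also holds genes other than these enzymes, such as Npc1a (0.17 ± 0.26) and mld (0.42 ± 0.30). The one that fell was shd, which converts ecdysone into 20-hydroxyecdysone in peripheral tissues, from 58.0 to 16.8 FPKM (-1.69 ± 0.39). Of the gland's own enzymes, spok was at 22.9 and 15.6 FPKM (-0.48 ± 0.37), phm at 6.41 and 5.58 FPKM (-0.13 ± 0.46), and sad at 9.95 and 9.17 FPKM (-0.07 ± 0.44). Cyp18a1, which degrades the hormone, stood at 3.46 and 6.62 FPKM (0.81 ± 0.54). The juvenile hormone enzyme jhamt was low throughout, at 1.88 and 0.292 FPKM.

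ImpL1 and Sb, both tied to disc eversion, rose. In the list of ecdysone-inducible Imp genes and matrix proteases, 2 of 10 rose and none fell, with a median of 0.70. ImpL1 went from 1.18 through 10.8 to 85.6 FPKM (2.92 ± 0.47), and Sb, the Stubble serine protease that discs need to evert, from 9.79 to 23.2 FPKM (1.21 ± 0.29). Matrix metalloproteases Mmp2 and Mmp1 stood at 48.4 and 83.3 FPKM (0.81 ± 0.27) and at 211 and 287 FPKM (0.49 ± 0.31). ImpE1 and ImpE3 were 0.66 ± 0.38 and 0.75 ± 0.44, and ImpL2 and the lactate dehydrogenase ImpL3 were level at 0.05 ± 0.27 and 0.03 ± 0.37. Disc patterning genes such as those of the wing and leg programmes were flat by contrast: 1 of 28 rose, and that was Sb. Among all counted entries 2.51% rose.

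The largest rise of any named gene was that of Ilp8, the relaxin-like peptide by which discs report their growth. It stood at 0.249, 2.09 and 175 FPKM in wandering larvae, stationary larvae and prepupae, a log2 change of 5.87 ± 0.99 over the last step. Rgk1, a small GTPase gene, went from 7.15 to 83.5 FPKM (3.42 ± 0.71). Of the unnamed genes CG3355 had the largest rise with an error bound under 1, from 8.51 to 229.8 FPKM (4.64 ± 0.51), followed by CG33998, from 6.95 to 167 FPKM (4.44 ± 0.77). The noncoding CR43428 rose from 1.09 to 164 FPKM and has no bound. Nplp4, listed among the neuropeptide precursors, fell from 175 to 48.8 FPKM (-1.78 ± 0.44).

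Of 25 counted cuticle protein entries 13 fell, 12 did not, and none rose. In the larval list 9 of 15 fell, with a median of -1.49, and 2 of the 9 are entries of Lcp65Ab2 with identical values. Cpr49Ag lay at the other end, at 47.8 and 74.6 FPKM (0.67 ± 0.39). Lcp1 went from 22439 FPKM in wandering larvae to 6928 and 149 FPKM (-5.49 ± 0.38), Lcp4 from 1653 to 140.1 FPKM (-3.51 ± 0.34) over the last step, and Lcp2 from 665 to 22.9 FPKM (-4.76 ± 0.50). Cpr49Ac was later to fall, at 3988, 4510 and 1136 FPKM (-1.95 ± 0.41). Of 10 counted pupal cuticle entries 4 fell and none rose, with Cpr67B at 94.5 and 4.01 FPKM (-4.21 ± 0.61) and Pcp at 327 and 33.8 FPKM (-3.20 ± 0.84). The later pupal genes Edg78E and Edg84A were under 1 FPKM or listed at 0. Osiris genes, which encode membrane proteins of cuticle-making epithelia, were mostly near 0. Of 24 entries 5 were counted, and 3 of these rose, against 2.51% of all counted entries. The 3 that rose were under 1 FPKM in stationary larvae. They were counted only through their prepupal level, so the filter favoured a rise and the shares cannot be compared. Osi6 went from 0.666 to 14.5 FPKM (3.26 ± 0.81), Osi7 from 0.798 to 7.80 FPKM, and Osi15 from 0.114 to 5.29 FPKM. Over the wider list of Osiris, Tweedle and mucin genes, which includes these 3, 4 of 17 counted rose and 5 fell, with a median of -0.48.

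Of 26 counted genes of chitin metabolism 3 rose and none fell, with a median of 0.25. Over all counted entries 2.51% rose and 4.13% fell. Chitinase Cht5 went from 51.7 to 219 FPKM (2.10 ± 0.25), Cht4 from 9.20 to 65.7 FPKM (2.75 ± 0.36), and the chitin-binding obst-A from 154 to 557 FPKM (1.89 ± 0.24). The deacetylases verm and serp were at 99.5 and 192 FPKM (0.99 ± 0.26) and at 119 and 212 FPKM (0.86 ± 0.25), and the chitin synthase kkv at 14.9 and 22.4 FPKM (0.60 ± 0.27).

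The catecholamine pathway that tans the puparium split between its steps. Tyrosine hydroxylase, ple, climbed from 252 FPKM in wandering larvae to 2377 and 4327 FPKM, a last step of 0.91 ± 0.47. Ddc, which turns dopa into dopamine, fell from 237 to 60.3 FPKM (-1.92 ± 0.28), and Pu, which supplies the cofactor of ple, fell from 724 to 328 FPKM (-1.10 ± 0.28). Dat, the enzyme that acetylates dopamine for the cuticle, rose from 47.7 to 514 FPKM (3.44 ± 0.35). The ebony gene e and yellow-c were at 382 and 558 FPKM (0.59 ± 0.26) and at 426 and 783 FPKM (0.92 ± 0.28). Over the whole tanning and pigment list 1 of 20 rose, 4 fell and the median was -0.03.

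Most digestive proteases of the larval midgut fell. Among 25 counted serine proteases of the Jonah and trypsin families 20 fell and none rose, and the median was -1.57. Jon66Ci went from 1228 FPKM in wandering larvae to 278 and 26.3 FPKM (-3.31 ± 0.39), and Jon99Ciii from 464 to 98.1 FPKM (-2.19 ± 0.28). Abundant members fell less, with Jon65Aiii at 1329 and 567 FPKM (-1.19 ± 0.25) and Jon65Ai level at 513 and 559.6 FPKM (0.17 ± 0.24). Of 19 carbohydrases, lipases and lysozymes 9 fell and 1 rose. LysS, a digestive lysozyme that shares its locus with LysB and LysD, was at 121 and 7.06 FPKM (-3.89 ± 0.97), the lipase gene mag at 73.7 and 9.53 FPKM (-2.79 ± 0.43), and the amylase Amy-p at 15.4 and 3.27 FPKM (-1.90 ± 0.51). The one that rose was tobi, an alpha-glucosidase, from 1.80 to 8.32 FPKM (1.78 ± 1.16).

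Of 25 counted muscle structural genes 9 fell and none rose, with a median of -0.77. Myosin light chain Mlc2 had 112, 21.0 and 4.94 FPKM at the 3 stages (-1.85 ± 0.35), myosin heavy chain Mhc 42.9, 5.93 and 1.58 FPKM (-1.39 ± 0.55), and the filament protein Mf 708, 235 and 73.1 FPKM (-1.63 ± 0.41). The Z-disc gene Zasp66 and tropomyosin Tm1 were close to level, at 1555 and 1108 FPKM (-0.45 ± 0.30) and at 315 and 294 FPKM (-0.06 ± 0.34). Among 60 cytochrome P450 genes 7 fell and 1 rose, the median being -0.42, against 4.13% and 2.51% of all counted entries. Cyp6g1, a detoxification enzyme, went from 63.2 to 20.1 FPKM (-1.56 ± 0.30), and the gene that rose was Cyp9b2, from 53.9 to 141 FPKM (1.41 ± 0.26).

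**Figure D4:**
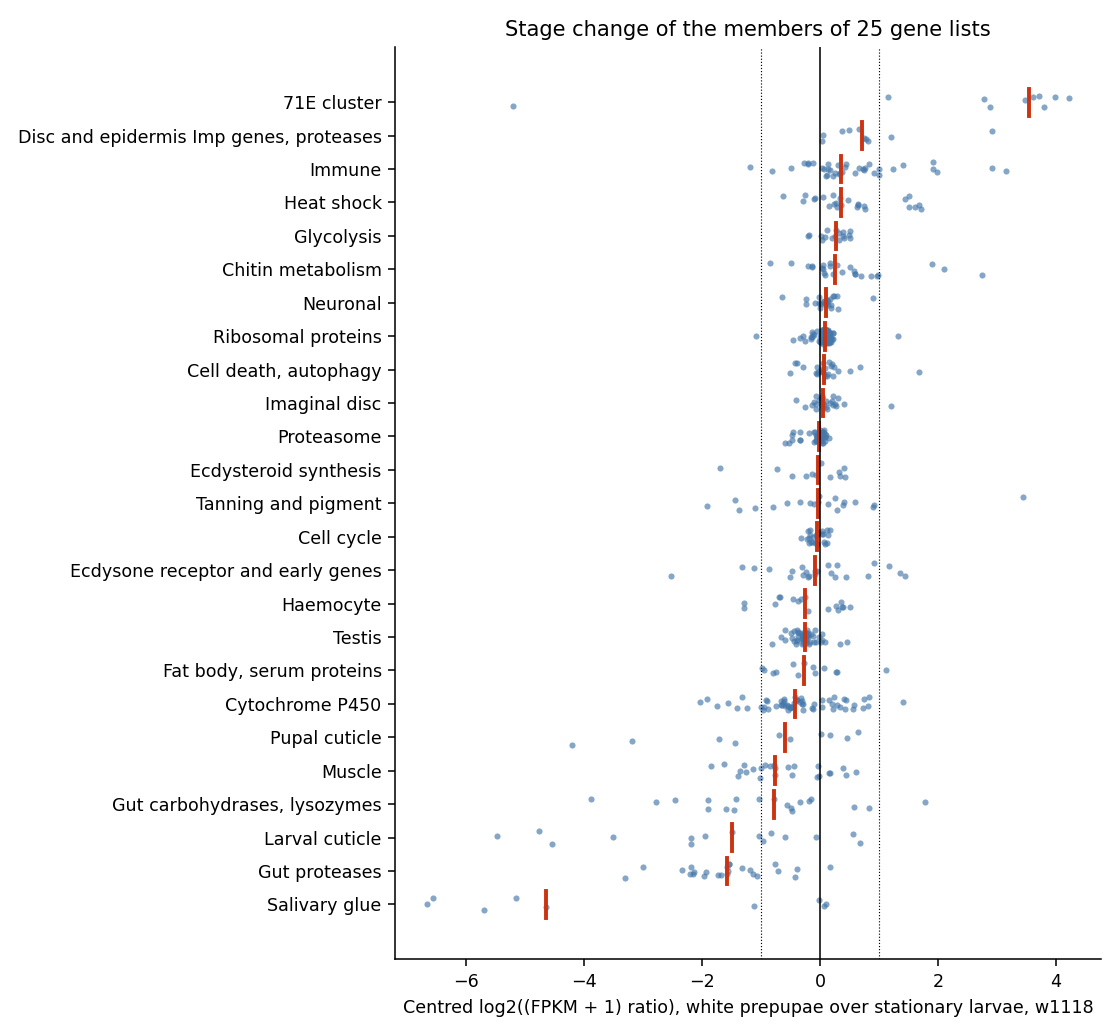
Centred log2((FPKM + 1) ratio) of white prepupae over stationary larvae in w1118 for the counted members of 25 gene lists, 1 point per entry with vertical jitter, ordered by the list median (red bar). Dotted lines mark 2-fold changes. Medians run from 3.55 for the 71E cluster to -4.65 for salivary glue, and most other lists sit within 0.5 of 0.

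Fat body products remained abundant. Of 13 counted members 1 rose, none fell, and the median was -0.26, where 2.51% of all counted entries rose and 4.13% fell. The storage protein receptor Fbp1 had 9564 and 8727 FPKM (-0.09 ± 0.88), Fbp2 had 6281 and 5586 FPKM (-0.13 ± 0.33), and the hexamerin Lsp2 had 7062 and 5319 FPKM (-0.37 ± 0.50). Lsp1alpha, Lsp1beta and Lsp1gamma, the other larval serum proteins, were at 5813, 4146 and 6774 FPKM in wandering larvae and at 1398, 1007 and 2255 FPKM in stationary larvae. In prepupae they stood at 686, 505 and 1259 FPKM, log2 changes of -0.98, -0.95 and -0.80. Yp3, a yolk protein gene, rose from 3.00 to 7.46 FPKM (1.12 ± 0.79).

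The cell death gene rpr, which blocks the inhibitor of apoptosis th, went from 13.3 through 43.7 to 137 FPKM (1.67 ± 0.31). It was the only 1 of 26 counted death and autophagy genes past 2-fold. That is near the share of all counted entries that rose (2.51%), so the count says little about the list. The initiator caspase Nc stood at 75.1 and 104 FPKM (0.51 ± 0.25), and hid, listed as W, was level at 23.8 and 24.5 FPKM (0.08 ± 0.34).

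Of 38 immune genes 8 rose and 1 fell, with a median of 0.36, against 2.51% and 4.13% of all counted entries. All but PGRP-SB2 were lower transcripts: the antimicrobial peptide gene Dro went from 7.15 to 19.9 FPKM (1.40 ± 0.50), AttD from 1.62 to 8.64 FPKM (1.92 ± 0.83), edin from 20.4 to 77.7 FPKM (1.92 ± 1.06), and Def from 0.574 to 12.6 FPKM with an error bound of 6.28. Def and CecA2 (0 and 2.83 FPKM) were counted only through their prepupal level. The negative regulator pirk fell from 30.3 to 12.3 FPKM (-1.19 ± 0.34). Of the haemocyte list 2 of 17 fell, against 4.13% of all counted entries. They were the phagocytic receptor eater (13.7 and 4.84 FPKM, -1.29 ± 0.38) and Hml (2.54 and 0.409 FPKM). Of 25 heat shock genes 6 rose, and all 6 were entries of Hsp70, whose near-identical copies share reads. Hsp70Bb was at 11.2 and 35.03 FPKM (1.60 ± 0.30), while the constitutive Hsc70-4 was level at 1093 and 1097 FPKM (0.05 ± 0.29).

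Several large lists held few or no changes of 2-fold. Of 91 ribosomal protein entries 1 rose and 1 fell, with a median of 0.09, and the one that rose, RpL3, has an error bound of 10.5. None of 43 proteasome, 25 cell cycle, 26 respiratory chain, 17 glycolysis, 24 neuronal, 54 testis or 7 dosage compensation entries reached 2-fold in either direction. Their medians lay between -0.26 and 0.26, and other centrings move all values by up to 0.10 in size. Neuronal elav was at 26.7 and 28.5 FPKM (0.13 ± 0.37).

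Single high values marked nwk and Notum. The synaptic gene nwk was at 2.55, 87.5 and 2.89 FPKM in w1118 wandering larvae, stationary larvae and prepupae, and at 2.79 and 2.60 FPKM in the trans-heterozygotes at the last 2 stages. Notum, a secreted Wnt inhibitor, was at 1.73, 86.0 and 3.40 FPKM. Their error bounds were 5.71 and 4.99, larger than the log2 changes of -4.46 and -4.27. Notum ends just before CG42717 on arm 3L.

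To see how far the w1118 course held in other animals, each stage change was set beside that of the Nxt1 trans-heterozygotes, which share no samples with it. Small RNAs left out, 73 of 75 entries that were at least 4-fold higher in w1118 prepupae had the same sign in the trans-heterozygotes, and 68 were at least 2-fold higher there. For falls the counts were 129 of 135 and 127. At 2-fold the courses were less alike. Of 265 entries that were higher, 229 had the same sign and 158 were at least 2-fold higher in the trans-heterozygotes. Of 446 that were lower, 415 had the same sign and 355 were at least 2-fold lower there. The share of all counted entries with the same sign in both genotypes is not given here, so no general rate stands beside these counts. Sgs1 had log2 changes of -6.66 in w1118 and -6.56 in the trans-heterozygotes, Lcp1 -5.49 and -5.36, Ilp8 5.87 and 5.96, and Dat 3.44 and 3.54. The median of the 71E cluster was 3.55 and 3.92, and that of the gut proteases -1.57 and -2.43. Other list medians differed in sign, with 0.36 in w1118 and -0.40 in the trans-heterozygotes for immune genes, 0.26 and -0.14 for glycolysis, and -0.48 and 0.05 for Osiris, Tweedle and mucin genes.

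The difference between the genotypes' stage changes was tested per entry with a two-sided normal test on the deposited statistics, adjusted by the Benjamini-Hochberg method. Of 10338 entries tested 89 (0.861%) had an adjusted value q of at most 0.05, 32 with a more positive and 57 with a more negative stage change in the trans-heterozygotes. Before adjustment 435 had a p under 0.05 in this normal test, a share no larger than that threshold alone gives where nothing differs. An entry that did not pass is thus not shown to change alike in both genotypes. With the largest start-site group of each gene in place of the gene, 7 passed, and the cause of this drop was not tested. The smallest q was that of Hsp70Bb. It was at 11.2 and 35.03 FPKM in w1118 and at 99.0 and 60.8 FPKM in the trans-heterozygotes, a difference in log2 change of -2.35 ± 0.30 (SE, q = 1.01e-10). Cyp9b2 was at 53.9 and 140.7 FPKM in w1118 and at 63.1 and 59.4 FPKM in the trans-heterozygotes, a difference of -1.47 ± 0.26 (q = 1.57e-05).

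In the muscle and digestive lists 10 entries passed, and all 10 had the more negative stage change in the trans-heterozygotes. Over all entries 89 of 10338 (0.861%) passed, 57 of the 89 with a more negative change. How many members of these lists were tested is not given here, so the shares cannot be compared. All 10 also had the higher stationary level in the trans-heterozygotes, which by itself makes the difference more negative. Act57B, a larval muscle actin, went from 84.2 to 40.1 FPKM in w1118 and from 347 to 43.7 FPKM in the trans-heterozygotes, a difference of -1.92 ± 0.28 (q = 2.63e-08). For Mhc the values were 5.93 and 1.58 FPKM against 47.9 and 2.41 FPKM (difference -2.41 ± 0.55, q = 0.00307). Amy-p was at 15.4 and 3.27 FPKM against 132 and 3.93 FPKM (-2.83 ± 0.51, q = 1.57e-05). In these 3 genes the prepupal levels of the genotypes were closer than the stationary ones.

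In the other direction, Muc26B dropped less in the trans-heterozygotes, from 420.1 to 60.6 FPKM (difference 1.81 ± 0.28, q = 9.97e-08), and so did Sgs5, from 4886 to 211 FPKM (1.25 ± 0.33, q = 0.0227). The pigment gene e went from 165 to 637 FPKM there, against 382 to 558 FPKM in w1118 (1.40 ± 0.26, q = 3.21e-05). Eip78C differed as well: it was at 53.3 and 58.0 FPKM in the trans-heterozygotes, a difference of 1.05 ± 0.25 (q = 0.00621). Of the other ecdysone receptor and early genes tested none passed. Genotype and strain cannot be told apart in this test, and its values measure the spread the authors estimated over 3 samples a group, which the labels do not say came from separate cultures.

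**Figure D5:**
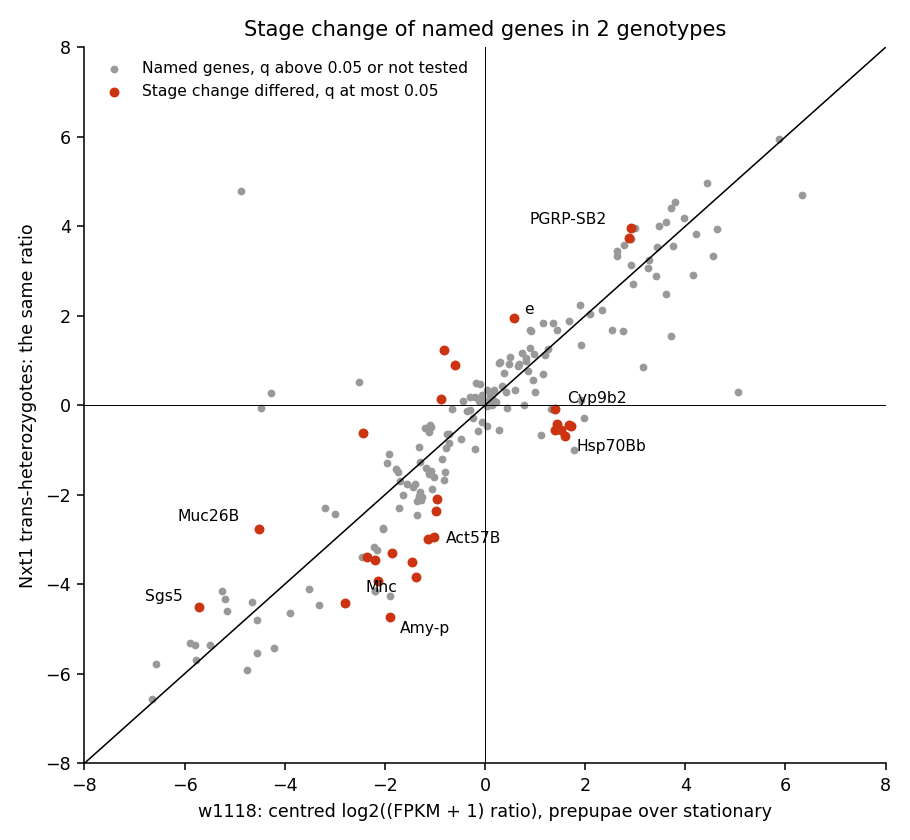
Centred log2((FPKM + 1) ratio) of white prepupae over stationary larvae in w1118 (horizontal) and in Nxt1 trans-heterozygotes (vertical) for the genes named in the text, 1 point per gene entry, with the line of equal change. Red points have q of at most 0.05 for the difference. The Sgs glue genes lie at the lower left in both genotypes, and Hsp70 entries at the right of 0 and just below it.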

How the data were processed

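The authors pooled 3 samples per group and deposited FPKM values, test statistics and p-values per gene and start-site group, per the file headers. Bowtie 1.1.1, Cufflinks and Cuffdiff are named in the submitters' processing notes. Coordinates are those of the tables, counted from 1; no source used here names their genome build. The deposited tables hold no counts, so depth is unknown. The test statistic is a deposited score. Dividing a deposited log2 fold change between genotypes by its statistic gave the standard error, after a check that each deposited p-value lay within 1% of the normal tail, and the error bound is the root of the summed squares of both stages' standard errors. FPKM were joined by gene entry with Python 3.11.15, pandas 2.3.3, numpy 2.4.6 and scipy 1.17.1, with a pseudocount of 1. The difference test was run on simulated data drawn with the standard errors and the normal distribution that it assumes. That run cannot show whether these hold for the deposited values.

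Genes and lists were chosen with earlier results of these data known. The text could name members of the ecdysone, Imp, 71E, glue and ecdysteroid lists, the 15 largest changes each way (5 for CG or CR numbers) at 5 FPKM or more, the 5 smallest q, and in each other list the 6 largest changes and 3 highest levels. Genomic neighbours by CG number, Edg78E, Edg84A, Jon25Biii, Mlc1, W, e, elav, kkv, pirk and, once small RNAs were left out, further largest changes were named after their values were seen. Several symbols are merged in 448 entries, and genes within such an entry cannot be told apart. A further 5896, some of them perhaps merged too, is the number of entries listed under the same locus as another entry. Each of these has its own values, and how reads were divided among them is not known. Pseudocounts, centrings and filters were varied.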

Additional observations from a re-analysis of the deposited data

Results flagged for a closer look

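Of 173 tested entries of genes considered for the text, 28 had q of at most 0.05 in the normal test of the difference. The test compares the stage change of the Nxt1 trans-heterozygotes with that of w1118. Over all entries tested, 89 of 10338 (0.861%) passed. Some of the 173 were named for a small q or after their values were seen, so these shares cannot be compared. Values are log2 differences, trans-heterozygotes minus w1118. The Hsp70 copies, which share reads, had -2.35 (Hsp70Bb), -2.38 (Hsp70Bc), -2.34 (Hsp70Bbb), -2.15 (Hsp70Aa) and -2.09 (Hsp70Ba). In muscle the values were -2.41 for Mhc, -1.92 for Act57B, -1.85 for Mlc1 and -1.37 for Mlc2. Among digestive genes they were -2.83 for Amy-p, -2.02 for LysD, -1.73 for Jon25Biii, -1.68 for mag, -1.24 for Jon99Ciii and -1.02 for Jon99Cii. Lsp1alpha and Lsp1beta had -1.35 and -1.12, the antimicrobial gene Dro -2.05 and Cyp9b2 -1.47. Positive values were found for CG14664 (2.10), CG13722 (1.84), Muc26B (1.81), Muc68E (1.54), e (1.40), Sgs5 (1.25), PGRP-SB2 (1.09), Eip78C (1.05) and Eig71Ea (0.90).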

How the results depend on the processing

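Pseudocounts and filters moved the counts of changed genes. With a pseudocount of 0.1 in place of 1, 152 entries were at least 4-fold higher and 276 lower. With 5, the counts were 155 and 243 at 2-fold and 48 and 71 at 4-fold. Leaving out entries that share a locus, chosen after seeing the data, gave 183 and 306 at 2-fold and 53 and 95 at 4-fold. Requiring 2 error bounds, also chosen later, gave 131 and 211, and 37 and 86. The other filters and centrings kept each of these counts within 1.5 times. Rescaling both stages to the same FPKM total moved the median of all entries by 0.10. Of 1909 gene values under alternatives 65 moved by more than their error bound, 37 of them at the pseudocount of 5, and no called change turned its sign. Of 330 list medians 6 moved, in 3 lists. The count of genotype differences, 89, was 57 at q of at most 0.01 and 7 in the largest start-site group of each gene; the cause was not tested. No paired analysis was possible because the deposited tables hold 1 pooled value per group, and leaving out single samples was not run for the same reason. Low genes without an error bound, such as Eig71Eh and Osi7, have no measure of their replicate error.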
